A study of Homo sapiens with 6 samples.

Results

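The EGR and AP-1 factors described here are 10 transcription factors, EGR1, EGR2, EGR3, FOS, FOSB, FOSL1, FOSL2, JUN, JUNB and ATF3, whose genes were picked by symbol from the 35554 genes of the deposited count table. They were proposed with the difference between the lines already known, so that difference is given for them as a description, without a test. Expression was measured by RNA sequencing in LNCaP, an established human prostate cancer cell line grown from a metastasis, and in LNCaP-enzaR, a resistant line that the study selected from LNCaP by continuous culture with enzalutamide. Enzalutamide acts by blocking signalling from androgens. Each line is represented by 3 libraries, 1 from each of 3 flasks that were harvested before the cells were confluent. The resistant line is a single selected line that, per the study's methods, was kept on a lower enzalutamide concentration once resistant. Stock cultures of both lines had serum in their medium. The methods also describe serum and calcium withdrawal before ligand treatment of cells in multi-well plates for RNA sequencing, and neither the serum nor the drug content of the medium in these flasks at harvest is stated. The replicates are flasks of a line, so their spread does not cover the variation between independently selected lines.

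Immediate early genes are transcribed within minutes of a growth factor, serum or stress signal, from factors that are already bound at their promoters and need no new protein. The MAP kinase cascade drives many of them through serum response factor (SRF) and its ETS-type cofactors, which bind the CArG box, and through proteins of the CREB and ATF family, which bind the sequence around TGACG. The EGR proteins are zinc finger factors that bind GC-rich sites. The FOS and JUN proteins pair through a leucine zipper to form AP-1, in which a FOS protein must join a JUN protein while JUN proteins can also pair among themselves, and ATF3 is a stress-induced member of the same zipper class that can pair with JUN proteins.

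The promoters show these sites in the letters themselves, and the windows of 4 of the genes are printed because they hold the CArG boxes or represent the TGACG sites of the others. Each is the stretch of 250 bases before a RefSeq transcript start in GRCh38.p14, written 5' to 3' on the strand of the gene, with matches to the CArG box (CC, then 6 letters that are each A or T, then GG), TGACNTCA, TGANTCA and TGACG in capitals, searched on both strands. A TGACNTCA site with G in the open position also counts as TGACG. EGR1 lies on the plus strand at chr5:138465229-138465478, EGR2 on the minus strand at chr10:62816367-62816616, FOS on the plus strand at chr14:75278578-75278827 and JUN on the minus strand at chr1:58784048-58784297.
EGR1: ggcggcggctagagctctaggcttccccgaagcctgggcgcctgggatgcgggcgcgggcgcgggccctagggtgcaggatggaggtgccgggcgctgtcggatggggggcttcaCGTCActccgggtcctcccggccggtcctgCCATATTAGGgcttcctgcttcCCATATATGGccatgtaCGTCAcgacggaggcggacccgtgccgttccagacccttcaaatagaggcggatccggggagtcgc
EGR2: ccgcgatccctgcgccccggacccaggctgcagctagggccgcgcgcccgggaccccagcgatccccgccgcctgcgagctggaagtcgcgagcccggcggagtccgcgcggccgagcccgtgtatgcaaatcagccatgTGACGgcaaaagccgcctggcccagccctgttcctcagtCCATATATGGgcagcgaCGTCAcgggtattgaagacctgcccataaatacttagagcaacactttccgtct
FOS: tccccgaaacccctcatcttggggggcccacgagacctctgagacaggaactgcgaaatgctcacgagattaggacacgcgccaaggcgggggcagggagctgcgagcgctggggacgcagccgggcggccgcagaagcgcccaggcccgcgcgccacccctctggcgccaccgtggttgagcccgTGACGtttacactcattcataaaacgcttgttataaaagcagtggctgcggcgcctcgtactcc
JUN: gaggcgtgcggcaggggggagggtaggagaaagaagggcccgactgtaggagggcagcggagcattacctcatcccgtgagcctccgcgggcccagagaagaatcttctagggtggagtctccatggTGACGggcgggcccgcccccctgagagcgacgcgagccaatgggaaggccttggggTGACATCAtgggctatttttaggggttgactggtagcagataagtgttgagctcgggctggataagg

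RefSeq windows were matched for 8 of the 10 genes, 11 windows in all, and EGR3 and FOSL1 had none. The EGR1 window held 2 CArG boxes, at bases 105 to 96 and 83 to 74 before the start, and the EGR2 window held 1, at bases 71 to 62, while the other EGR2 windows held none. A CArG box was present in 1.16% of all 35116 promoter windows of this length. TGACG was found in the windows of EGR1, FOS, FOSB, FOSL2, JUN and JUNB and in the EGR2 window with the CArG box. The other EGR2 windows held no TGACG, and 21.2% of all windows held it. The longer site TGACNTCA was found in the JUN window, at bases 67 to 60 before the start, and in an ATF3 window, at bases 123 to 116. The other ATF3 window held none, and 6.87% of all windows held the site. The AP-1 site TGANTCA was in none of the 11 windows and in 6.57% of all windows. The EGR site GCGNGGGCG, which is not in capitals, was present in the EGR1 window and in 8.41% of all windows. These are matches of letters in a short window and do not show binding. Sites further upstream, such as CArG boxes beyond the FOS window, were not searched.

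All 10 genes passed the filter on low counts, among 19711 genes tested. The call used throughout was an adjusted p up to 0.05 by edgeR's quasi-likelihood test together with a fold of 1.5 or more. For these 10 genes it serves as a description only, since they were proposed with the difference known. By this call, 8 were higher in LNCaP-enzaR, 1 was lower (EGR3) and 1 was not called (FOSL1). The same call was reached by 42.7% of all tested genes, with 23.3% higher and 19.5% lower, so changed genes were common in this comparison. The median log2 fold change of LNCaP-enzaR over LNCaP was 1.30 for the 10 genes, also with EGR2 at its lower bound, and 0.01 for all tested genes. The lines did not overlap for 8 genes that were higher and 1 that was lower in LNCaP-enzaR, against 35.6% and 35% of all tested genes. EGR2 passed the filter only through the LNCaP-enzaR libraries and EGR3 only through the LNCaP libraries. Their place in these counts is therefore partly set by the filter. Levels are counts per 1000000 of the TMM-scaled library (CPM) unless another scale is named. In bulk RNA, more cells with a transcript and more transcript per cell cannot be told apart.

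**Figure D1:**
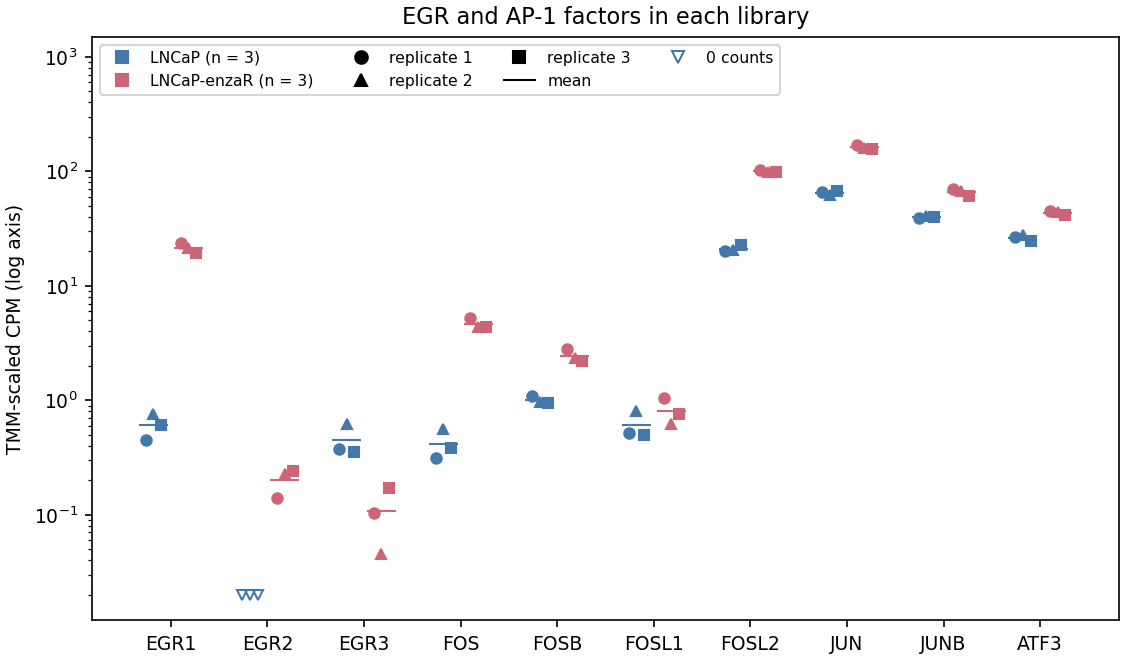
CPM (log axis) of the 10 EGR and AP-1 factors in each of the 6 libraries, with LNCaP and LNCaP-enzaR in different colours, and open triangles where a library held 0 counts. LNCaP-enzaR libraries lie above all LNCaP libraries for 8 genes, below them for EGR3, and among them for FOSL1.

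The EGR genes moved apart from each other. EGR1 (ENSG00000120738.8, chr5:138465479-138469303, plus strand), the widely expressed member of the family that serum and growth factors induce, had 0.454, 0.759 and 0.611 CPM in LNCaP replicates 1 to 3. In the LNCaP-enzaR libraries EGR1 had 23.5, 21.6 and 19.5 CPM. The lowest resistant library was thus far above the highest parental library. The means were 0.608 ± 0.152 CPM and 21.5 ± 1.99 CPM (SD, n = 3 each), a difference of 5.14 (SE 0.145) on the log2 scale, or 35.4-fold. Of all tested genes, 239 had a higher log2 fold change than EGR1.

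EGR2 (ENSG00000122877.17, chr10:62811996-62919900, minus strand), known for its role in myelinating Schwann cells and in lymphocytes, had 0 counts in all 3 LNCaP libraries. It had 12, 20 and 24 counts in LNCaP-enzaR replicates 1 to 3. Transcripts of EGR2 were therefore seen in the resistant line alone, and at a low level there. The LNCaP-enzaR mean was 0.202 ± 0.0554 CPM (SD, n = 3), at least 5.86-fold higher than the level of 3 counts per library that a count of 0 allows. Of its exonic bases, 3.91% lie in exons of a long noncoding RNA on the same strand.

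EGR3 (ENSG00000179388.9, chr8:22687659-22693480, minus strand), a related factor that EGR1-inducing signals also induce, ran the other way. It had 35, 56 and 28 counts in LNCaP replicates 1 to 3. It had 9, 4 and 17 counts in LNCaP-enzaR replicates 1 to 3. The lines did not overlap, although the resistant libraries rested on few counts. The means were 0.450 ± 0.144 CPM and 0.107 ± 0.0631 CPM (SD, n = 3 each), a difference of -2.04 (SE 0.494) on the log2 scale, or 4.12-fold lower in LNCaP-enzaR. With at least 10 counts required in every library, neither EGR2 nor EGR3 was kept. EGR4, the remaining gene of the family, did not pass the filter, with 0 counts in each LNCaP library and 1, 8 and 4 counts in LNCaP-enzaR replicates 1 to 3.

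Per length, which allows genes to be compared, the summed level of EGR1, EGR2 and EGR3 was 0.283 ± 0.0738 CPM per kb of exon in LNCaP and 6.94 ± 0.614 CPM per kb in LNCaP-enzaR (SD, n = 3 each), a 24.5-fold difference. In LNCaP-enzaR nearly all of that sum was EGR1, at 6.86 ± 0.634 CPM per kb. In LNCaP, EGR1 stood at 0.194 ± 0.0486 CPM per kb beside EGR3 at 0.0894 ± 0.0286 CPM per kb (SD, n = 3). The corepressors of EGR proteins were not higher in LNCaP-enzaR by the call. NAB1, which binds EGR proteins and holds back their targets, had 7.21 ± 0.730 CPM and 7.69 ± 0.232 CPM, at 0.09 on the log2 scale (SE 0.0986, adjusted p = 0.430, edgeR), and 12.3% of its exonic bases are shared with long noncoding RNAs. NAB2, the second corepressor and itself an EGR1 target, fell from 13.7 ± 0.493 CPM to 8.15 ± 1.00 CPM (SD, n = 3 each), at -0.75 on the log2 scale (SE 0.0956, adjusted p = 7.37e-06, edgeR).

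All 4 genes of the FOS family had higher means in LNCaP-enzaR, and they differed widely in size. FOS (ENSG00000170345.10, chr14:75278826-75282230, plus strand), the classical immediate early partner of JUN, had 0.313, 0.561 and 0.382 CPM in LNCaP replicates 1 to 3. In LNCaP-enzaR replicates 1 to 3 FOS had 5.24, 4.38 and 4.33 CPM. The lines did not overlap. The means were 0.419 ± 0.128 CPM and 4.65 ± 0.509 CPM (SD, n = 3 each), a difference of 3.47 (SE 0.201) on the log2 scale, or 11.1-fold, and 597 of the tested genes had a higher log2 fold change.

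FOSB (ENSG00000125740.14, chr19:45467995-45475179, plus strand), which encodes a FOS protein that also has a more stable shortened form, had 1.09, 0.967 and 0.955 CPM in LNCaP. In LNCaP-enzaR it had 2.83, 2.32 and 2.22 CPM. The lines did not overlap, and the mean went from 1.00 ± 0.0754 CPM to 2.46 ± 0.327 CPM (SD, n = 3 each), a difference of 1.29 (SE 0.175) on the log2 scale, or 2.44-fold. ERCC1, a DNA repair gene on the opposite strand whose span covers FOSB without shared exons, was at 33.1 CPM and 43.8 CPM and was not called, with a log2 fold change of 0.41 (adjusted p = 0.000165, edgeR).

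FOSL1 (ENSG00000175592.9, chr11:65892049-65900573, minus strand) encodes FRA1, a FOS protein without a strong activation domain that is typical of invasive mesenchymal cells. It had 0.519, 0.814 and 0.496 CPM in LNCaP and 1.04, 0.623 and 0.766 CPM in LNCaP-enzaR. The ranges overlapped, and FOSL1 was the only gene of the 10 for which they did. The means were 0.610 ± 0.177 CPM and 0.811 ± 0.214 CPM (SD, n = 3 each), a difference of 0.41 (SE 0.293) on the log2 scale.

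FOSL2 (ENSG00000075426.12, chr2:28392448-28417317, plus strand) encodes FRA2, the relative of FRA1, and was the most abundant FOS gene. In LNCaP it had 20.0, 20.5 and 22.6 CPM, and in LNCaP-enzaR 102, 98.8 and 99.0 CPM. The flasks of each line lay close together and the lines far apart. The means were 21.0 ± 1.41 CPM and 99.97 ± 1.85 CPM (SD, n = 3 each), a difference of 2.25 (SE 0.0656) on the log2 scale, or 4.76-fold, and 1260 tested genes had a higher log2 fold change. FLJ31356, a long noncoding RNA on the opposite strand that overlaps the start of FOSL2 but shares no exon with it in GENCODE v44, also rose, from 0.0271 CPM to 0.284 CPM (3.35 on the log2 scale with SE 0.740, adjusted p = 0.00111, edgeR).

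JUN (ENSG00000177606.8, chr1:58776845-58784048, minus strand), the strongest activator of its family and one that AP-1 itself induces, had 65.6, 61.7 and 67.8 CPM in LNCaP replicates 1 to 3. In LNCaP-enzaR it had 169, 161 and 157 CPM. The lines did not overlap, and the means of 65.0 ± 3.09 CPM and 162 ± 6.37 CPM (SD, n = 3 each) gave a log2 fold change of 1.32 (SE 0.0589) or 2.50-fold. LINC01135, a noncoding gene whose start lies at position -1080 relative to the start of JUN and which runs the other way, rose from 0.446 ± 0.163 CPM to 1.47 ± 0.192 CPM (SD, n = 3 each; 1.73 on the log2 scale with SE 0.276, adjusted p = 6.99e-05, edgeR).

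JUNB (ENSG00000171223.6, chr19:12791486-12793315, plus strand), a weaker activator that can also restrain JUN, had 39.5, 40.4 and 39.7 CPM in LNCaP. In LNCaP-enzaR it had 70.8, 67.1 and 61.0 CPM. The parental flasks were nearly identical and all lay below the resistant flasks. The means were 39.9 ± 0.472 CPM and 66.3 ± 4.94 CPM (SD, n = 3 each), a difference of 0.73 (SE 0.0657) on the log2 scale, or 1.66-fold. Of its exonic bases, 14.2% lie in exons of HOOK2 on the opposite strand, which was at 59.4 CPM and 74.4 CPM and was not called (log2 fold change 0.33, adjusted p = 0.000372, edgeR). How strand entered the counting is not stated, so reads from the shared bases cannot be told apart.

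ATF3 (ENSG00000162772.17, chr1:212565334-212620777, plus strand), a stress-responsive repressor of the ATF family, had 26.8, 27.9 and 24.5 CPM in LNCaP. It had 45.4, 43.7 and 41.7 CPM in LNCaP-enzaR. The lines did not overlap. The means of 26.4 ± 1.71 CPM and 43.6 ± 1.85 CPM (SD, n = 3 each) gave a log2 fold change of 0.72 (SE 0.0692) or 1.65-fold, close to the 1.5-fold limit of the call. JUNB lay just inside that limit as well, while FOSL1 at 1.32-fold lay outside it.

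**Figure D2:**
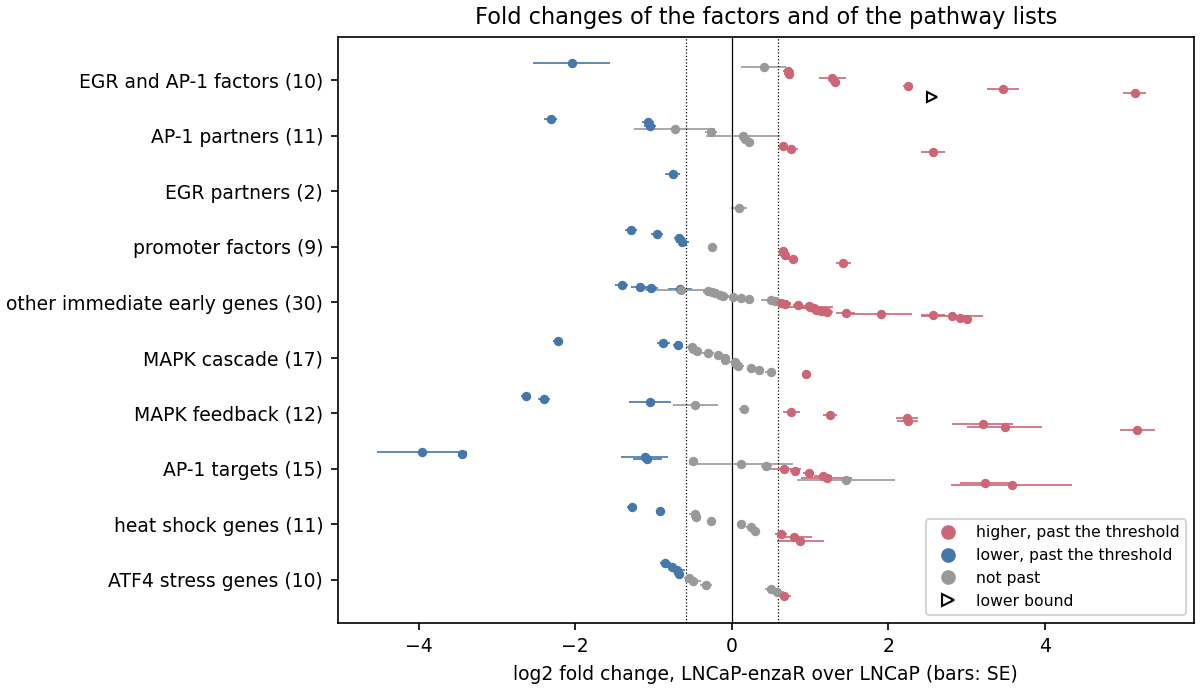
Log2 fold changes of LNCaP-enzaR over LNCaP with their standard errors for the 10 factors, with EGR2 drawn as a lower bound (arrow), beside the genes of 9 other lists, with dotted lines at the 1.5-fold limit and the number of genes tested in parentheses. EGR1 (5.14), FOS (3.47) and FOSL2 (2.25) lie well above the 1.5-fold limit, and EGR3 (-2.04) is the only negative value among the factors.

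On the per-length scale, the order of the genes differed between the lines. For this comparison JUND, the JUN protein that cells carry without stimulation and which is not among the 10, was included. It had 94.0, 105 and 96.5 CPM in LNCaP and 157, 155 and 153 CPM in LNCaP-enzaR, and it rose by 0.65 on the log2 scale (SE 0.0573, adjusted p = 1.50e-07, edgeR). In LNCaP the order of levels was JUND at 51.1 ± 2.98 CPM per kb, JUNB at 21.8 ± 0.258, JUN at 17.9 ± 0.852, ATF3 at 6.61 ± 0.428, FOSL2 at 2.93 ± 0.196 and FOSL1 at 0.323 ± 0.0938 CPM per kb (SD, n = 3). Below these came EGR1, FOSB at 0.181 ± 0.0136 CPM per kb, FOS at 0.131 ± 0.0401 CPM per kb and EGR3, and last EGR2 with 0 counts. The neighbouring pairs from EGR1 down to EGR3 had overlapping ranges, and the other neighbours did not overlap.

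In LNCaP-enzaR the levels per length were JUND at 80.3 ± 1.19 CPM per kb, JUN at 44.8 ± 1.76, JUNB at 36.2 ± 2.70, FOSL2 at 13.96 ± 0.258, ATF3 at 10.9 ± 0.462, EGR1 at 6.86 ± 0.634 and FOS at 1.46 ± 0.160 CPM per kb (SD, n = 3). FOSB at 0.442 ± 0.0588 CPM per kb and FOSL1 at 0.430 ± 0.113 CPM per kb followed with overlapping ranges. EGR2 at 0.0546 ± 0.0150 CPM per kb and EGR3 at 0.0213 ± 0.0125 CPM per kb closed the order. JUN thus stood above JUNB, FOSL2 above ATF3, and EGR1 and FOS above FOSL1 in LNCaP-enzaR, and each of these pairs stood in the reverse order in LNCaP, without overlap. The order of FOSL2 and ATF3 depended on the length used: per kb of the longest transcript, an alternative added after the data were seen, ATF3 at 20.7 ± 0.879 CPM per kb stayed above FOSL2 at 14.9 ± 0.275 CPM per kb in LNCaP-enzaR (SD, n = 3 each). The other pairs kept their mean order in both lines with that length, while without length scaling JUN was already above JUNB in LNCaP.

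The make-up of AP-1 transcripts was compared as each gene's share of its family's sum per length. FOSL2 made up 83.0%, 78.5% and 85.1% of the FOS family in LNCaP replicates 1 to 3 and 84.0%, 86.7% and 86.5% in LNCaP-enzaR. These ranges overlapped, with means of 82.2 ± 3.34% and 85.7 ± 1.45% (SD, n = 3 each). FOS held 3.67 ± 1.02% of the family in LNCaP and 8.95 ± 0.650% in LNCaP-enzaR, and the lines did not overlap. FOSB went from 5.09 ± 0.666% to 2.71 ± 0.262% and FOSL1 from 9.04 ± 2.49% to 2.62 ± 0.597% (SD, n = 3 each), both without overlap. FOSB transcripts were thus more abundant in LNCaP-enzaR while their share of the family was smaller.

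In the JUN family, JUND held the largest share in every library. The share of JUN was 20.5%, 18.2% and 20.7% in LNCaP and 27.99%, 27.5% and 27.8% in LNCaP-enzaR, which did not overlap. JUNB held 24.0 ± 0.403% and 22.4 ± 0.920%, and JUND 56.2 ± 1.72% and 49.8 ± 0.991% (SD, n = 3 each). The summed FOS family stood at 3.57 ± 0.188 CPM per kb in LNCaP and 16.3 ± 0.583 in LNCaP-enzaR, 4.56-fold higher. The summed JUN family stood at 90.8 ± 2.57 CPM per kb and 161 ± 5.58, 1.78-fold higher. JUN family transcripts therefore exceeded FOS family transcripts 25.5 ± 1.01-fold in LNCaP and 9.91 ± 0.206-fold in LNCaP-enzaR (SD, n = 3 each), with 24.4 to 26.3 and 9.74 to 10.1 over the libraries. Levels of mRNA do not give the amounts of protein dimers.

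**Figure D3:**
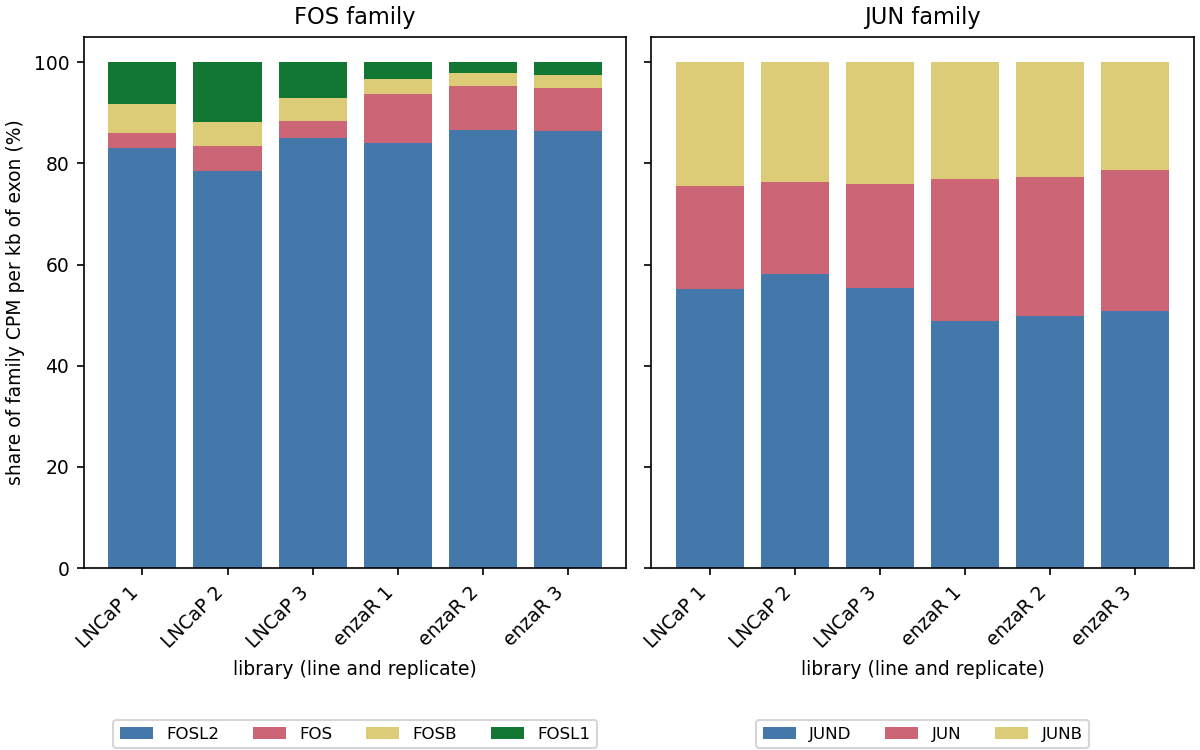
Share of each gene in its family's summed level (CPM per kb of exon, in percent) in each of the 6 libraries, for the FOS family on the left and the JUN family on the right. FOSL2 holds 78.5% to 86.7% of the FOS family in every library, and the JUN share is higher in each LNCaP-enzaR library than in each LNCaP library.

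Variation between flasks of a line, which the choice of genes did not use, was compared with that of all genes. The median SD of log2 CPM was 0.104 for these genes and 0.0989 for all tested genes in LNCaP, and 0.143 and 0.145 in LNCaP-enzaR. The genes split into a variable and a steady group in LNCaP. EGR3 (SD 0.413), FOS (0.405), FOSL1 (0.381) and EGR1 (0.358) varied most there, each with 74 counts or fewer in every LNCaP library. JUNB (0.0170), JUN (0.0690), ATF3 (0.0945), FOSL2 (0.0951) and FOSB (0.104) varied least. In LNCaP-enzaR the SD of log2 CPM was 0.134 for EGR1 and 0.153 for FOS, and it was 0.763 for EGR3.

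The most variable genes in LNCaP, grouped after their spread was seen, were all highest in the same flask. Counting error at their low counts was not separated from variation between flasks. LNCaP replicate 2 lay above the mean of its line by 0.34 on the log2 scale for EGR1, 0.47 for EGR3, 0.44 for FOS and 0.44 for FOSL1. That flask had the highest value of its line for 6 of the 9 genes with counts in LNCaP (66.7%), against 30.3% of all tested genes. Among them JUNB led only narrowly, at 40.4 CPM against 39.7 and 39.5 CPM. Of 30 other immediate early genes tested, 8 were highest in that flask (26.7%), as were 7 of 10 genes of the ATF4 stress response (70%) and 0 of 11 heat shock genes, so a high share was not seen in these factors alone. In LNCaP-enzaR, replicate 1 was highest for 8 of the 10 genes, against 40.1% of all tested genes, and for 7 when libraries were scaled by their totals alone, an alternative chosen after the data were seen. LNCaP-enzaR replicate 1 also stood further from replicates 2 and 3 of its line than these stood from each other, with a chi-square per degree of freedom over genes of 25.8 and 20.6 against 5.72. Without it, 9 of the 10 genes were called, as with all libraries.

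**Figure D4:**
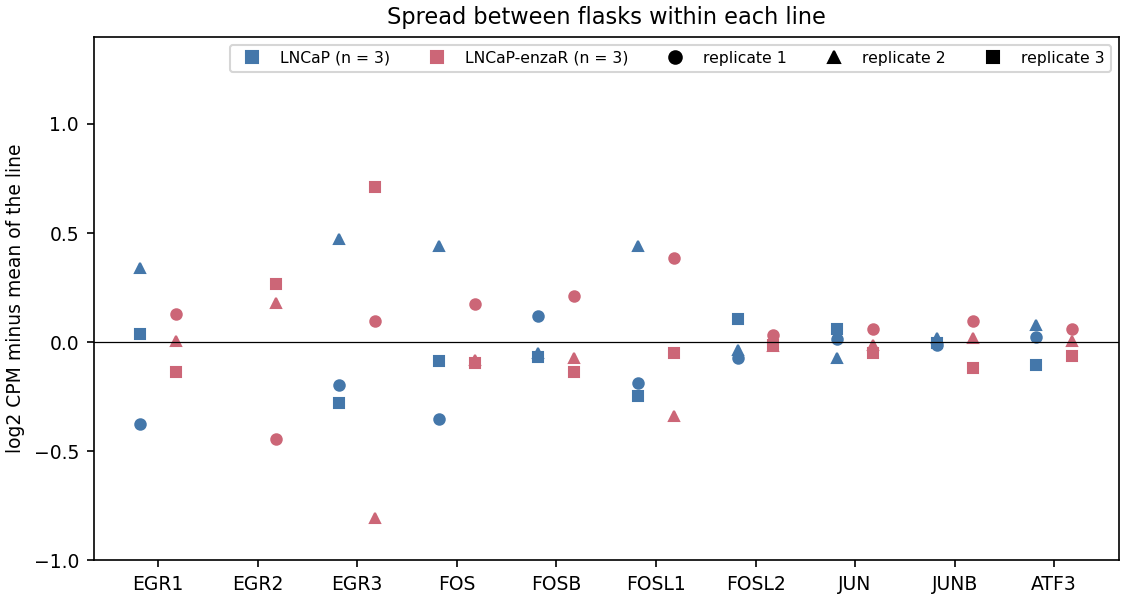
Deviation of each library from the mean of its line (log2 CPM) for the 10 factors, with EGR2 left out in LNCaP, where all counts were 0. LNCaP replicate 2 lies 0.34 to 0.47 above its line's mean for EGR1, EGR3, FOS and FOSL1, and the deviations of JUN and FOSL2 are small.

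The genes around these factors in their pathway were taken from lists of 129 genes, of which 126 were in the table and 116 were tested. These lists were chosen with earlier results of these data known, so their shares are descriptions. Most genes named from them had the highest or lowest fold change of their list, and their adjusted p are those of selected genes. By edgeR's test 40 of the 116 rose, 28 fell and 48 were not called, so that 58.6% were called against 42.7% of all tested genes, with a median log2 fold change of 0.12 against 0.01. Upstream, 9 factors that act on immediate early promoters were tested, of which 4 rose and 4 fell. ELK3, an ETS-type partner of SRF, rose from 6.18 ± 0.709 to 16.6 ± 1.18 CPM (log2 fold change 1.42, adjusted p = 1.17e-08, edgeR). CREB1, which binds TGACG, fell from 83.3 ± 2.33 to 34.1 ± 3.54 CPM (log2 fold change -1.29, adjusted p = 1.61e-09, edgeR). SRF itself, named after its value was seen, fell as well, with a log2 fold change of -0.67, and lost the call with upper-quartile scaling, at -0.57.

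Genes of the MAP kinase cascade that activates these promoters mostly were not called, with 1 of 17 higher, 3 lower and 13 not called. Those called made up 23.5% of the list, against 42.7% of all tested genes. Levels of mRNA do not give the activity of these kinases. MAP2K1, the kinase MEK1, rose from 89.5 ± 2.99 to 173 ± 8.21 CPM (SD, n = 3 each; adjusted p = 2.33e-09, edgeR). RPS6KA3, the kinase RSK2 that phosphorylates CREB and FOS, fell from 120 ± 5.85 to 25.7 ± 1.29 CPM (log2 fold change -2.22, adjusted p = 1.48e-12, edgeR). Genes that the cascade induces and that feed back on it were called in both directions. Of 12 tested, 7 were higher, 3 lower and 2 not called, so that 83.3% were called. ETV5, an ETS factor of that group, rose from 0.216 ± 0.0988 to 8.04 ± 1.15 CPM, with a log2 fold change of 5.18 (adjusted p = 7.69e-11, edgeR), a size close to that of EGR1. SPRY1, a feedback inhibitor, fell from 72.9 ± 2.19 to 11.8 ± 0.316 CPM with a log2 fold change of -2.62 (adjusted p = 2.90e-13, edgeR).

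Other immediate early genes included members that rose and members that fell. Of 30 tested, 15 rose, 4 fell and 11 were not called, with a median log2 fold change of 0.59. The called share was 63.3%, against 42.7% of all tested genes, whose median log2 fold change was 0.01. TRIB1, a pseudokinase, rose from 16.4 ± 0.953 to 131 ± 1.48 CPM (log2 fold change 3.00, adjusted p = 6.60e-14, edgeR). CCN1, a secreted matrix protein and classical SRF target, fell from 18.4 ± 0.978 to 6.97 ± 0.482 CPM (log2 fold change -1.40, adjusted p = 2.70e-09, edgeR). Among genes named after their values were seen, RHOB, NR4A3 and NR4A2 rose by log2 fold changes of 2.91, 2.82 and 1.91, DUSP1 rose by 1.14, and MYC was not called, at 0.22.

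Partners that can enter a zipper dimer with FOS or JUN proteins were mixed, with 3 of 11 higher, 3 lower and 5 not called. That is 54.5% called, against 42.7% of all tested genes. MAFF, a small MAF protein, rose from 1.14 ± 0.176 to 6.74 ± 0.889 CPM (log2 fold change 2.57, adjusted p = 2.09e-09, edgeR). JDP2, which pairs with JUN proteins and represses AP-1 sites, fell from 52.4 ± 2.62 to 10.6 ± 0.874 CPM (log2 fold change -2.31, adjusted p = 6.06e-12, edgeR). Downstream, 15 of 25 genes often named as AP-1 targets were tested, of which 7 rose, 4 fell and 4 were not called, or 73.3% called. VIM, the mesenchymal filament vimentin, rose from 2.85 ± 0.135 to 6.41 ± 0.544 CPM (log2 fold change 1.17, adjusted p = 4.88e-07, edgeR). FN1, fibronectin, fell from 337 ± 7.05 to 31.0 ± 1.01 CPM (log2 fold change -3.44, adjusted p = 7.20e-15, edgeR). Several called genes of this list, named after their values were seen, had low levels. MMP1 rose from a mean of 0.0206 CPM in LNCaP, and MMP7 fell to 0.0263 CPM in LNCaP-enzaR. MMP10, MMP13 and IL11, which rose, and PLAUR, which fell, were also low. Genes listed as AP-1 targets were thus called in both directions, many at low levels, in a line where AP-1 transcripts were higher.

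Stress programmes that can induce JUN, FOS and ATF3 were called at shares of 45.5% (heat shock) and 50% (ATF4 response), beside 42.7% of all tested genes. Of 11 heat shock genes tested, 3 rose, 2 fell and 6 were not called. HSPA1B, a chaperone whose reads cannot be separated from its near-identical copy HSPA1A, had 89.7 ± 8.97 and 139 ± 7.85 CPM (log2 fold change 0.63, adjusted p = 2.60e-06, edgeR), and it lost the call without LNCaP replicate 1 or 2, at 0.58 each time. HSPE1, a mitochondrial chaperone, fell from 97.3 ± 2.33 to 40.2 ± 2.61 CPM (adjusted p = 3.05e-10, edgeR). Of 10 genes of the ATF4 stress response, in which ATF3 is itself a target, 1 rose, 4 fell and 5 were not called. DDIT3, the stress factor CHOP, rose from 6.36 ± 0.460 to 10.1 ± 0.330 CPM (log2 fold change 0.66, adjusted p = 1.69e-05, edgeR). TRIB3 fell from 106 ± 5.70 to 59.1 ± 5.59 CPM (log2 fold change -0.85, adjusted p = 1.03e-07, edgeR).

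The genes whose profile over the 6 libraries was most like that of EGR1, by Euclidean distance of log2 CPM, were SGK2 at a distance of 0.644, NSG1 at 0.832 and TSPAN7 at 0.865. SGK2, a kinase of the serum and glucocorticoid regulated group, had 0.489 ± 0.0890 CPM in LNCaP and 20.8 ± 1.08 CPM in LNCaP-enzaR. NSG1, an endosomal protein of neurons, had 0.803 ± 0.176 and 23.5 ± 1.53 CPM, and TSPAN7, a tetraspanin, had 0.753 ± 0.0866 and 19.6 ± 1.24 CPM (SD, n = 3 each). All of these shared the low parental and higher resistant level by the way they were chosen.

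Over the whole data set, libraries held 77759122 to 98616465 counts. Mitochondrial genes took 6.72% to 7.06% of counts in LNCaP and 14.8% to 15.5% in LNCaP-enzaR, and with these genes left out the same number of the 10 factors was called, 9. Markers of LNCaP cells were present in every library, with summed levels of 5194 to 5314 CPM in LNCaP and 3153 to 3474 CPM in LNCaP-enzaR over 10 of 10 genes. Basal and stromal markers summed to 19.9 to 23.1 CPM in LNCaP and 10.3 to 11.7 CPM in LNCaP-enzaR over the 9 of 10 in the table, of which 5 were under 1 CPM in every library. Blood cell markers summed to at most 0.227 CPM in any library over the 6 of 7 in the table.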

How the data were processed

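Polyadenylated RNA of 3 flasks of LNCaP and 3 of LNCaP-enzaR was sequenced as paired-end reads. The authors trimmed reads with Cutadapt, aligned them to GRCh38 with STAR and counted them per gene with featureCounts, and the deposited table holds these raw counts, not normalized. Strand and multiple-mapping settings are not given in the sources used here, so overlapping and antisense genes and near-identical copies are uncertain. Groups and replicate numbers come from the sample titles.

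The lines were compared in edgeR 4.0.16 under R 4.3.3 (filterByExpr, TMM, robust quasi-likelihood test without covariates, Benjamini-Hochberg adjustment over 19711 genes). These genes held 99.96% of counts. A call needed an adjusted p up to 0.05 together with a fold of 1.5 or more. DESeq2 1.42.0 was an alternative, with other scalings, filters and fold limits, the replicate number as a block, and each library left out in turn. P-values measure the spread between flasks. Depth of 3 counts, 0.0302 to 0.0382 CPM, was the floor for EGR2 and covers counting error only. Levels per kb used the union of exons in GENCODE v44, in which 99.8% of genes were found by identifier. Of the genes found, 91.4% had the same coordinates as in the deposited table. The study's methods name an earlier GENCODE release, so exon lengths may differ from those that were counted. Lists outside the 10 genes gave names by a rule: in each list, the called genes with the highest and lowest log2 fold change, at 5 CPM or more in a line and without overlap, besides JUND, NAB1, NAB2, the 3 genes most like EGR1 and tested neighbours that overlap one of the 10 genes or start within 5 kb of its start. The 10 genes and all lists were chosen with earlier results of these data known. The edgeR test was checked on simulated counts. The call was reached by 38.6% of 44 genes simulated at 1.5-fold and 77.3% of 44 at 2-fold. At 4-fold it was reached by 93.5% and at 8-fold by 100%. Changes simulated at the 1.5-fold limit were often not called, in part because the call itself requires an estimated fold of 1.5. In the simulation of 18387 genes, 8 unchanged genes were called.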

Additional observations from a re-analysis of the deposited data

How the results depend on the processing

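Among the 10 factors, 9 were called in every alternative except 2. A minimum of 10 counts in every library, under which EGR2 and EGR3 were not tested, left 7, with 0 lower, and a fold of at least 2 left 7. No direction reversed among the 10 factors and 32 other named genes that were refitted, each under 13 or 14 alternatives. FOSL1, the factor that was not called, ranged from 0.19 to 0.67 in log2 fold change, EGR1 from 4.96 to 5.34 and EGR3 from -2.57 to -1.69. With the replicate number as a block, 9 factors, 8212 genes in all and 69 other pathway genes were called. Replicate numbers did not pair the samples, since deviations of same-numbered libraries correlated at -0.07 to -0.0004. The count of all genes called was 8425, and 13074 (6467 lower) with no minimum fold, 5561 (2326 lower) with a fold of at least 2, 8321 by DESeq2, and 8372 to 8517 when a library was left out. Upper-quartile scaling moved the median log2 fold change of all genes to 0.11. Shares within AP-1 depended on length. With the longest transcript, FOSL2 held 81.7% of its family in LNCaP-enzaR and JUN 21.5% and 29.96% in LNCaP and LNCaP-enzaR. Without length scaling, FOSL2 held 91.2% and 92.7% and JUN 32.0% and 42.3%. Depth limits EGR2 and EGR3, which had 24 counts or fewer in each LNCaP-enzaR library.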
